A study of Mus musculus with 6 samples.

Results

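The 9 transcription factors *Pdx1*, *Ptf1a*, *Sox9*, *Nkx6-1*, *Mnx1*, *Onecut1*, *Gata4*, *Gata6* and *Nr5a2* mark or build the early pancreatic progenitor epithelium, and their transcripts were compared between WT and *mir-302* KO embryos. They were chosen by symbol, and each matched 1 of the 55414 genes in the count table. All 9 passed the filter on low counts that left 16353 genes to test.

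tdTomato-positive cells were sorted from the trunk of mouse embryos at E10.5, 3 libraries per genotype, and the labels give their tissue as pancreas. The WT group carried *Pdx1-Cre* and tdTomato with both *mir-302* alleles intact (genotype label Pdx1-Cre+, Tdtomato+, miR-302WT). The KO group carried the same Cre and reporter without *mir-302* (Pdx1-Cre+, Tdtomato+, miR-302KO), and as *mir-302* heterozygous parents were crossed, the loss is in every cell of the embryo and not only in the sorted ones. Cre is driven from the *Pdx1* promoter, so tdTomato marks cells with a history of *Pdx1* activity, which besides the pancreatic buds takes in neighbouring duodenum and distal stomach. Neither the number of embryos behind a library nor separate litters are stated, so p-values measure the spread between these libraries.

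*Pdx1* opens the pancreatic domain of the foregut endoderm and *Ptf1a* commits part of it to pancreas. *Sox9* keeps progenitors dividing and undifferentiated, *Onecut1* (also called Hnf6) acts upstream of *Pdx1* and of endocrine commitment, and *Gata4* and *Gata6* are partly redundant zinc finger factors that the buds need to grow. *Mnx1* is needed for the dorsal bud, *Nkx6-1* and *Ptf1a* later oppose each other as trunk and tip are set apart, and *Nr5a2* is a nuclear receptor of progenitors and acinar cells.

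The miRNAs missing in KO silence transcripts by pairing their seed, bases 2 to 8, with the 3′UTR. Mature sequences of 3 of them are shown with the seed in capitals (RefSeq, GRCm38.p6), since sites for the seed of the first 2 were searched for in the 9 transcripts.
mmu-miR-302b-3p: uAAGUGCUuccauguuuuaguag
mmu-miR-302d-3p: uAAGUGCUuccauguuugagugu
mmu-miR-302c-3p: aAGUGCUUccauguuucagugg
The first 2 share the seed AAGUGCU, and the third, as RefSeq gives it, starts without their first base. Sites for that shifted seed and for miR-367-3p, of the same cluster, were not searched for, and miR-302a-3p is not shown. The printed miRNAs lie on chromosome 3, with miR-302b-3p at chr3:127545275-127545297 on the plus strand.

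The longest annotated 3′UTR of each factor (GENCODE M21, transcript strand only) was searched for AGCACTT, which pairs with the whole seed AAGUGCU, and for GCACTT followed by A. Neither was found in any of the 9 (0 of 9), against 21.5% of the 13778 tested genes with a 3′UTR. The 3′UTRs ran from 335 bases for *Ptf1a* to 2892 for *Nr5a2*, beside a median of 1349 over the tested genes. The shorter match GCACTT occurred in *Nkx6-1* alone, starting at base 1227 of 1278, and is present in the 3′UTR of 34.6% of tested genes. It is in capitals below.
*Nkx6-1* 3′UTR: atgaaatgtaatGCACTTtctgtttc

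Levels are given as CPM, a gene's counts scaled to library size with edgeR's TMM factors, which correct for library composition, and library totals ran from 17352498 to 26634523. The genes of the cluster cannot check the genotype labels here. Of *Mir302a*, *Mir302b*, *Mir302c*, *Mir302d* and *Mir367*, only *Mir302d* had counts, 2 in KO replicate 3. Hemoglobin transcripts set WT replicate 3 and KO replicate 1 apart, with a red blood cell marker sum of 16269 and 6570 CPM against 0.912 to 343 CPM in the other libraries. Values without these libraries are given where results rest on them.

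The main test, the quasi-likelihood test of edgeR, models counts across all genes, and its p-values were adjusted over all genes by Benjamini and Hochberg's method. It gave 0 of the 9 factors an adjusted p under 0.05, as it did 0% of the 16353 genes. An unadjusted p under 0.05 was reached by 3 factors, *Gata4*, *Gata6* and *Mnx1*, against 10.4% of all genes, and each was higher in KO, against 6.42% of all genes in that direction. DESeq2's Wald test, the tool the study used, called 2 factors, *Gata4* and *Gata6*, both higher in KO, where it called 4.87% of 14353 genes, 4.22% higher and 0.648% lower. The KO and WT libraries did not overlap for the same pair of factors, beside 16.4% of all genes, 8.36% with KO above and 7.99% with KO below. Over the 9 factors the median log2 fold change was 0.46, with 5 higher and 4 lower in KO, beside a median of -0.02 over all genes tested. That median rested on KO replicate 2, without which it was -0.038.

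**Figure D1:**
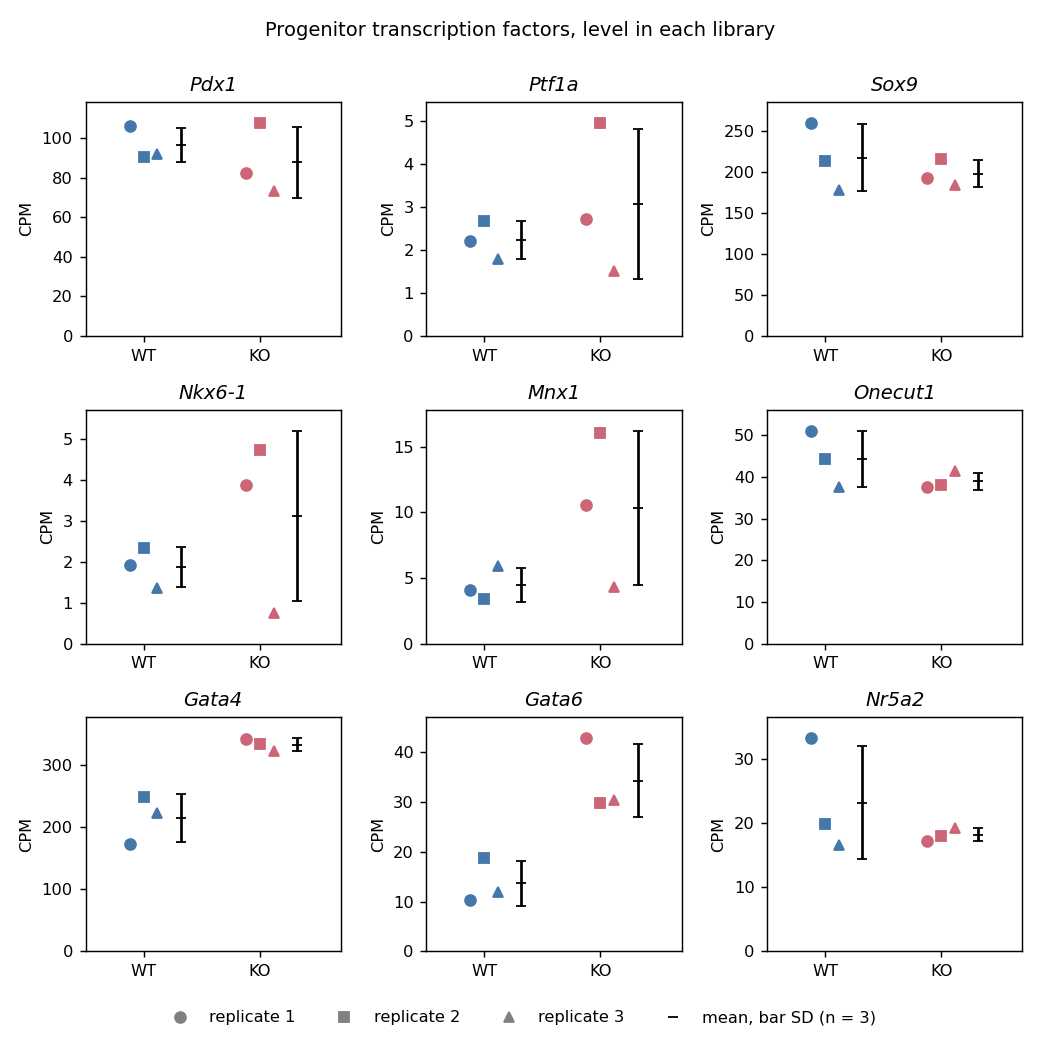
Level of each factor in CPM (vertical axes from 0) in the 3 WT and 3 KO libraries, with a symbol per replicate and the mean with SD (n = 3) beside them. The KO points of *Gata4* and *Gata6* lie above all WT points, and KO replicate 2 is the highest and KO replicate 3 the lowest KO library for *Pdx1*, *Ptf1a*, *Nkx6-1* and *Mnx1*.

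*Gata4* and *Gata6* gave the clearest separation. *Gata4* (ENSMUSG00000021944.16) measured 173, 249 and 222 CPM in WT replicates 1 to 3, against 342, 334 and 322 CPM in KO replicates 1 to 3. The lowest KO library exceeded the highest WT library, and the KO libraries lay close together. The mean was 215 ± 38.6 CPM for WT and 332 ± 9.93 CPM for KO (SD, n = 3 each), a ratio of 1.55. The log2 fold change was 0.63 (standard error 0.13, 95% interval 0.32 to 0.94), with an adjusted p of 0.14 by edgeR and 0.000919 by DESeq2.

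*Gata6* (ENSMUSG00000005836.11) measured 10.4, 18.7 and 11.8 CPM in WT replicates 1 to 3, against 42.8, 29.8 and 30.4 CPM in KO replicates 1 to 3. Again the genotypes did not overlap, and the nearest libraries were WT replicate 2 and KO replicate 2. The mean was 13.6 ± 4.45 CPM for WT and 34.3 ± 7.35 CPM for KO (SD, n = 3 each), a ratio of 2.52. The log2 fold change was 1.33 (standard error 0.26, 95% interval 0.72 to 1.95), with an adjusted p of 0.132 by edgeR and 3.52e-05 by DESeq2. A two-sided exact permutation test of the CPM values gave p = 0.1 for both genes, the smallest p that 3 libraries against 3 allow.

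The edgeR call for *Gata6* turned on WT replicate 2, without which its adjusted p was 0.0386, while that of *Gata4* stayed above the threshold with any library left out. When genes with low counts were kept, edgeR called both, with adjusted p of 0.0427 for *Gata4* and 0.0312 for *Gata6*. Without WT replicate 3 and KO replicate 1 together, the log2 fold changes were 0.66 and 1.07, and neither was called by edgeR (adjusted p = 1.00 each) or by DESeq2 (adjusted p = 0.192 and 0.165), in a comparison of 2 libraries with 2.

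*Gata4* exceeded *Gata6* in every library, though by less in KO. For WT replicates 1 to 3 the log2 ratio of their CPM values was 3.99, 3.70 and 4.17, and for KO replicates 1 to 3 it was 2.98, 3.46 and 3.38. The KO libraries lay below the WT libraries, by 0.68 on the log2 scale (two-sided exact permutation test, p = 0.1, or 0.4 adjusted over 4 ratios). From unscaled counts with 0.5 added, the difference was -0.71.

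Markers of neighbouring cells were summed per library to see which moved with the GATA factors. The list of 10 gut endoderm markers summed to 159 to 191 CPM in WT and 195 to 224 CPM in KO, without overlap. Most of this sum was *Hnf4a*, at 118 to 146 CPM in WT and 112 to 169 CPM in KO. *Hnf4a* itself overlapped between genotypes, and it is also among the other regulators of pancreatic progenitors and their endoderm described below. All 10 had counts and 7 were tested, of which 5 were higher and 2 lower in KO. DESeq2 called 1 of them, the foregut factor *Sox2*, beside 4.22% of all genes called higher. *Sox2* was at 0.660 to 1.55 CPM in WT and 2.88 to 5.14 CPM in KO (log2 fold change 2.04, adjusted p = 0.00128 by DESeq2 and 0.137 by edgeR). The study names *Sox2* among the predicted *mir-302* targets of the Wnt pathway that were higher in KO. *Osr1* had a log2 fold change of 0.89 (adjusted p = 0.502 by edgeR), and the intestinal factor *Cdx2* one of -0.84 (adjusted p = 0.669 by edgeR). The list of 10 neural markers summed to 140 to 174 CPM in WT and 192 to 268 CPM in KO, but *Nkx6-2*, which pancreatic progenitors also express, made up 113 to 141 and 172 to 224 CPM of this. Of the neural genes, 3 of 10 (*Olig2*, *Neurog2* and *Lhx3*) were at 0 counts in all libraries, while *Tubb3*, at 12.1 to 35.1 CPM, and *Elavl4*, at 4.62 to 9.44 CPM, had counts in every library and overlapped between genotypes. The part of these cells in the GATA values was not tested. In bulk libraries, a change in the share of a cell type and a change of RNA per cell cannot be told apart.

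The 10 markers of mesenchyme, all detected, overlapped between genotypes and summed to 280 to 1292 CPM in WT and 135 to 1369 CPM in KO. The sum was lowest in KO replicate 2, where *Col1a1* and *Col3a1* were at 0 counts. Other transcripts of the list were present there, with *Col1a2* at 34.9 CPM and *Vim* at 81.1 CPM. In the same library *Gata4* was at 334 CPM and *Gata6* at 29.8 CPM. Epithelial markers, 7 of 7 detected with *Krt8* the highest, summed to 3754 to 4204 CPM in WT and 3903 to 4314 CPM in KO and overlapped. Of the 7, the keratin genes *Krt18* and *Krt19* had all KO libraries above all WT libraries, beside 8.36% of all genes. Their log2 fold changes were 0.23 and 0.54 (adjusted p = 0.418 and 0.176 by edgeR). DESeq2 called *Krt19* (adjusted p = 0.0135), beside 4.22% of all genes called higher. The list as a whole was split, 4 genes being higher and 3 lower, and its middle value was 0.0098 on the log2 scale. The part of mesenchymal or epithelial makeup in the GATA values was not tested.

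**Figure D2:**
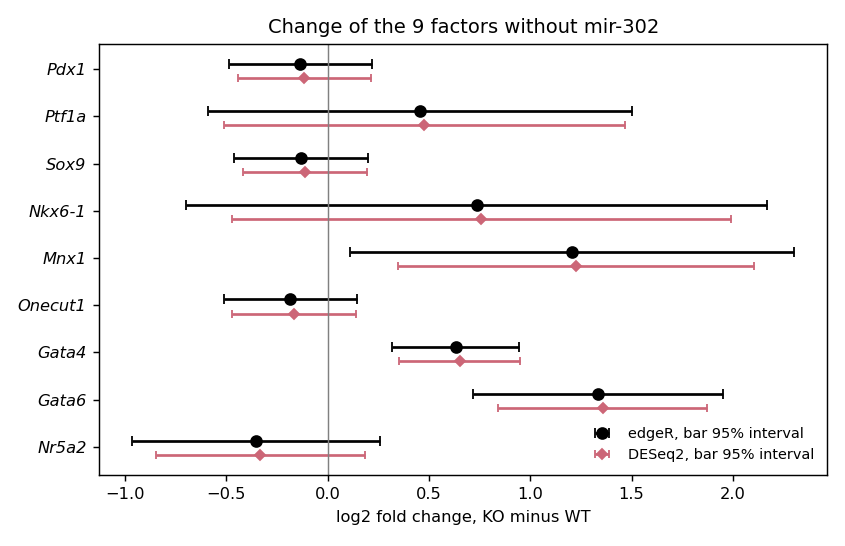
Log2 fold change of each factor, KO minus WT, from edgeR (circles) and DESeq2 (diamonds), with bars for the 95% interval. The intervals of *Gata4*, *Gata6* and *Mnx1* lie above 0 with both tools and those of the other 6 factors include 0.

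*Pdx1* and *Sox9*, the factors most used to define these progenitors, differed little between genotypes. *Pdx1* (ENSMUSG00000029644.8) measured 106, 90.6 and 92.0 CPM in WT replicates 1 to 3, against 82.3, 108 and 73.1 CPM in KO replicates 1 to 3. The groups overlapped, with both the highest and the lowest library in KO. The means were 96.2 ± 8.58 and 87.6 ± 17.8 CPM (SD, n = 3 each), and the log2 fold change was -0.14 (95% interval -0.49 to 0.22, adjusted p = 0.859 by edgeR). It was 0.014 without KO replicate 3, and -0.29 without KO replicate 2 (unadjusted p = 0.0467 and adjusted p = 0.419 by edgeR).

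*Sox9* (ENSMUSG00000000567.6) measured 259, 213 and 178 CPM in WT replicates 1 to 3, against 193, 216 and 184 CPM in KO replicates 1 to 3. All KO libraries fell within the WT range. The means were 217 ± 40.8 and 198 ± 16.2 CPM (SD, n = 3 each), with a log2 fold change of -0.13 (95% interval -0.46 to 0.20, adjusted p = 0.851 by edgeR), or 0.016 without WT replicate 1. The log2 ratio of *Pdx1* to *Sox9* was -1.15 ± 0.18 in WT and -1.18 ± 0.17 in KO (SD, n = 3 each; two-sided exact permutation test, p = 0.8, or 0.8 adjusted over 4 ratios).

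*Onecut1* and *Nr5a2* were lower in KO on average without passing the test. *Onecut1* (ENSMUSG00000043013.11) measured 51.1, 44.4 and 37.7 CPM in WT replicates 1 to 3, against 37.7, 38.0 and 41.4 CPM in KO replicates 1 to 3, a log2 fold change of -0.19 (95% interval -0.51 to 0.14, adjusted p = 0.759 by edgeR). *Nr5a2* (ENSMUSG00000026398.15) was at 33.1, 19.8 and 16.5 CPM in WT and at 17.2, 17.9 and 19.2 CPM in KO, a log2 fold change of -0.35 (95% interval -0.96 to 0.26, adjusted p = 0.748 by edgeR). In both genes WT replicate 1 was the highest library and the KO libraries lay close together. Without WT replicate 1 the difference of *Nr5a2* was -0.0027 and that of *Onecut1* -0.072, on the log2 scale.

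*Mnx1*, *Nkx6-1* and *Ptf1a* were low and varied most within KO. *Mnx1* (ENSMUSG00000001566.10) measured 4.10, 3.41 and 5.87 CPM in WT replicates 1 to 3, against 10.6, 16.1 and 4.30 CPM in KO replicates 1 to 3. KO replicates 1 and 2 were above all WT libraries and KO replicate 3 was within their range. The means were 4.46 ± 1.27 and 10.3 ± 5.89 CPM (SD, n = 3 each), 2.31-fold higher in KO. The log2 fold change was 1.21 (95% interval 0.11 to 2.30) with an unadjusted p of 0.0352 and an adjusted p of 0.415 by edgeR, and DESeq2 gave an adjusted p of 0.101. Without KO replicate 3, the log2 fold change was 1.61 by edgeR, and DESeq2 called the gene, with an adjusted p of 0.000619. Without KO replicate 2 it was 0.77, with an unadjusted p of 0.125 by edgeR and an adjusted p of 0.573 by DESeq2. With GC offsets, or with the replicate number as a block, the unadjusted p by edgeR was 0.097 and 0.108. The log2 ratio of *Mnx1* to *Pdx1* was -4.31 ± 0.39 in WT and -3.18 ± 0.66 in KO (two-sided exact permutation test, p = 0.2, or 0.4 adjusted over 4 ratios).

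*Nkx6-1* (ENSMUSG00000035187.11) had 41, 42 and 28 counts in WT replicates 1, 2 and 3, or 1.93, 2.35 and 1.36 CPM, and 104, 83 and 14 counts in KO replicates 1, 2 and 3, or 3.88, 4.73 and 0.762 CPM. KO replicates 1 and 2 were the highest of the 6 libraries and KO replicate 3 was the lowest. The log2 fold change was 0.74 with a wide 95% interval of -0.70 to 2.17 (adjusted p = 0.79 by edgeR). It was 0.36 without KO replicate 2 and 1.23 without KO replicate 3.

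*Ptf1a* (ENSMUSG00000026735.3) had 47, 48 and 37 counts in WT replicates 1, 2 and 3, or 2.22, 2.68 and 1.80 CPM, and 73, 87 and 28 counts in KO replicates 1, 2 and 3, or 2.72, 4.96 and 1.52 CPM. Its highest and lowest libraries were both KO. The log2 fold change was 0.46 (95% interval -0.59 to 1.50, adjusted p = 0.832 by edgeR), and -0.038 without KO replicate 2. Its ratio to *Nkx6-1* did not separate the genotypes, at 0.21 ± 0.08 in WT and 0.10 ± 0.56 in KO on the log2 scale (two-sided exact permutation test, p = 0.7, or 0.8 adjusted over 4 ratios).

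**Figure D3:**
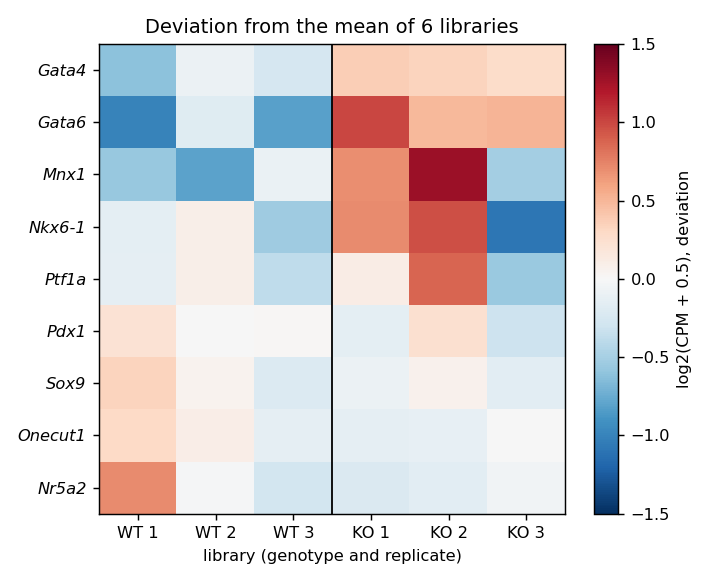
Deviation of each factor's log2(CPM + 0.5) from its mean over the 6 libraries, libraries in columns and factors in rows, with a line between genotypes (red above the mean, blue below). *Gata4* and *Gata6* split by genotype, *Mnx1*, *Nkx6-1* and *Ptf1a* are highest in KO replicate 2, and *Sox9*, *Onecut1* and *Nr5a2* are highest in WT replicate 1.

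The factors varied together in groups, given here as a description over 6 libraries that share depth and cell makeup. On log2 CPM, Pearson's r was 0.96 for *Gata4* and *Gata6*, 0.94 for *Onecut1* and *Nr5a2* and 0.92 for *Ptf1a* and *Nkx6-1*. After each genotype's mean was removed, r was 0.78, 0.94 and 0.91. *Mnx1* followed *Ptf1a* and *Nkx6-1* with r of 0.74 and 0.77 on the same footing, and *Pdx1* followed *Ptf1a* with 0.84. The lowest r was -0.73 before genotype means were removed, for *Onecut1* and *Gata4*, and -0.85 after, for *Gata4* and *Nr5a2*.

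The library that was highest for *Ptf1a*, *Nkx6-1* and *Mnx1*, KO replicate 2, also had the lowest mesenchymal sum (135 CPM) and the highest endocrine marker sum (6605 CPM). KO replicate 3, which was lowest for *Ptf1a* and *Nkx6-1*, had mesenchymal and endocrine sums of 1175 and 2568 CPM. KO replicate 1, second highest for *Nkx6-1* and *Mnx1*, had the highest mesenchymal sum (1369 CPM) and an endocrine sum of 3237 CPM. WT replicate 2, with an endocrine sum of 6084 CPM, had *Ptf1a* at 2.68 CPM. The 12 endocrine markers, led by the glucagon gene *Gcg*, each had counts, and their sums overlapped between genotypes, at 1465 to 6084 CPM in WT and 2568 to 6605 CPM in KO. The part of cell makeup in the values of these factors was not tested.

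Among the 9847 other genes with a mean of at least 10 CPM, *Mrps18c*, *Cdk2ap2*, *Znhit2*, *Ap2m1* and *Fgfrl1* were most like the mean profile of the factors, with Pearson's r of 0.96 to 0.98 over the 6 libraries. *Mrps18c* encodes a mitochondrial ribosomal protein and *Ap2m1* a subunit of a clathrin adaptor. None of these 5 genes passed the edgeR test, and their log2 fold changes ran from 0.06 for *Ap2m1* to 0.48 for *Fgfrl1*, a receptor-like protein that binds FGFs.

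Levels were set side by side between factors as CPM per kilobase of exon, with exon lengths from GENCODE M21. In WT the order was *Gata4* (55.0 ± 9.90), *Sox9* (52.4 ± 9.86), *Pdx1* (44.6 ± 3.98), *Onecut1* (10.8 ± 1.63), *Nr5a2* (3.92 ± 1.49), *Gata6* (2.10 ± 0.68), *Mnx1* (1.98 ± 0.57), *Ptf1a* (1.48 ± 0.29) and *Nkx6-1* (0.599 ± 0.158 CPM per kilobase, SD, n = 3 throughout). *Gata4*, *Sox9* and *Pdx1* overlapped in turn, as did the run from *Nr5a2* to *Ptf1a*. *Onecut1* stood apart from both neighbours, and *Nkx6-1* from *Ptf1a*. *Ptf1a* and *Nkx6-1*, which mark committed pancreas, were the lowest of the 9.

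In KO the order was the same at the top and the bottom, but *Gata4* (85.2 ± 2.54 CPM per kilobase) no longer overlapped *Sox9* (47.8 ± 3.92), and *Gata6* (5.28 ± 1.13) and *Mnx1* (4.59 ± 2.62) lay above *Nr5a2* (3.07 ± 0.17, SD, n = 3 each). *Mnx1* overlapped both *Gata6* and *Nr5a2*, and *Nkx6-1* (0.995 ± 0.665) now overlapped *Ptf1a* (2.03 ± 1.16).

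**Figure D4:**
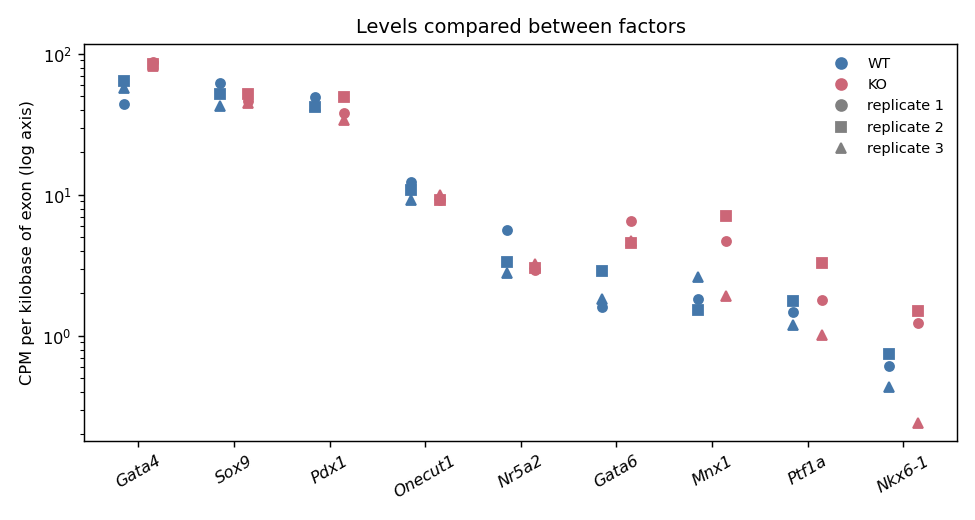
CPM per kilobase of exon (log axis) of each factor in the WT (blue) and KO (red) libraries, with a symbol per replicate and factors in the order of their WT means. *Gata4*, *Sox9* and *Pdx1* lie between 33.9 and 87.6, and *Nkx6-1* between 0.243 and 1.51.

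Other annotated genes share exon sequence with some of the factors. How the counts handled strand is not stated, so reads of a gene and of its partner on the opposite strand cannot be told apart. The antisense gene *Ptf1aos* shares 609 exon bases with *Ptf1a* and had 1 to 9 counts. *1010001N08Rik*, on the strand opposite *Gata6*, shares 93 bases and had 43 to 122 counts, with overlap between genotypes. *Gm20649* shares 2171 bases with *Onecut1* on its own strand and had 0 counts, and how reads of this stretch were assigned is not known. The values of these 3 factors are uncertain to that extent.

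The longest transcript of 6 of the 9 factors held 200 consecutive bases that were 75% or more G and C, *Sox9*, *Nkx6-1*, *Mnx1*, *Onecut1*, *Gata4* and *Gata6*, as did 19.3% of tested genes. Over all tested genes that held one, the median log2 fold change was 0.14, and over those that held none it was -0.05. Of the 6, *Nkx6-1*, *Mnx1*, *Gata4* and *Gata6* were higher in KO and *Sox9* and *Onecut1* lower. With offsets for the GC share of the stretch, the log2 fold changes were 0.52 for *Gata4*, 1.12 for *Gata6*, 0.87 for *Mnx1* and 0.41 for *Nkx6-1* by edgeR. For *Sox9* and *Onecut1* they were -0.20 and -0.21, and all 6 values were lower than without offsets. By edgeR neither *Gata4* nor *Gata6* was called with these offsets (adjusted p = 0.198 and 0.159). DESeq2 with such offsets, an alternative chosen after seeing the data, called *Gata4* (adjusted p = 0.00854) and *Gata6* (adjusted p = 0.000312). The part of GC content in these values was not tested.

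The factors were set beside 35 other regulators of pancreatic progenitors, their endoderm or first progeny, of which all 35 were tested. By edgeR 0 of them had an adjusted p under 0.05, and an unadjusted p under 0.05 was reached by 5 that were higher and 4 that were lower in KO, beside 6.42% and 3.97% of all genes. The 4 that DESeq2 called were higher in KO, *Sox4*, *Klf5*, *Nkx6-2* and *Hes1*, beside 4.22% of all genes called higher and 0.648% called lower. All KO libraries were above all WT libraries for 4 of the 35 and below for 4, beside 8.36% and 7.99% of all genes. The median log2 fold change was -0.02, the same as for all genes.

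*Sox4*, which acts in endocrine differentiation, was at 27.2, 44.6 and 24.6 CPM in WT and at 152, 147 and 74.1 CPM in KO, a log2 fold change of 1.96 (adjusted p = 0.132 by edgeR and 1.55e-08 by DESeq2). *Klf5*, a factor of gut epithelium, was at 31.5, 39.7 and 29.2 CPM in WT and at 61.2, 73.6 and 63.6 CPM in KO, a log2 fold change of 0.98. *Nkx6-2*, the close relative of *Nkx6-1*, was at 131, 141 and 113 CPM in WT and at 197, 224 and 172 CPM in KO, a log2 fold change of 0.63. For these 3 genes the genotypes did not overlap, and *Nkx6-2* was higher than *Nkx6-1* in CPM in every library.

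The Notch effector *Hes1*, which holds progenitors undifferentiated, was at 7.68, 11.8 and 8.30 CPM in WT and at 25.2, 26.6 and 11.3 CPM in KO, where KO replicate 3 was within the WT range. *Foxa1* had a log2 fold change of 0.51 (adjusted p = 0.339 by edgeR), with KO above WT in all libraries, and its relative *Foxa2* one of 0.02. The 4 regulators that were lower at an unadjusted p under 0.05 included *Onecut2* and *Onecut3*, relatives of *Onecut1*. Their log2 fold changes were -0.57 and -0.80 (adjusted p = 0.448 and 0.453 by edgeR), and the genotypes overlapped for *Onecut2* but not for *Onecut3*.

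Of 17 genes that the factors control in later pancreas or that committed pancreas uses, 13 were tested, and *Ins2*, *Ctrb1*, *Amy2a5* and *Pnlip* fell under the filter. Here 10 of 13 were lower in KO and the median log2 fold change was -0.26. By edgeR 0 had an adjusted p under 0.05, and an unadjusted p under 0.05 was reached by *Dll1* and *Vtn*, both lower in KO, beside 3.97% of all genes in that direction. *Dll1*, a Notch ligand that *Ptf1a* switches on, was at 83.5, 90.4 and 62.5 CPM in WT and at 47.8, 47.7 and 62.6 CPM in KO, a log2 fold change of -0.58 (adjusted p = 0.248 by edgeR). It was the single gene of the list that DESeq2 called, at an adjusted p of 0.0487, beside 4.87% of all genes called and 0.648% called lower, and its groups overlapped.

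*Vtn*, which encodes vitronectin, was at 678, 549 and 458 CPM in WT and at 426, 432 and 428 CPM in KO, a log2 fold change of -0.39. *Slc2a2*, the glucose transporter that *Pdx1* controls in beta cells, had a log2 fold change of -0.82 with a standard error of 0.39. Its groups overlapped, and its adjusted p was 0.549 by edgeR. The carboxypeptidase gene *Cpa1*, which marks the tips of the growing epithelium, had a log2 fold change of -0.46 with a standard error of 0.47. Its highest KO library was replicate 2, as for *Ptf1a*.

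**Figure D5:**
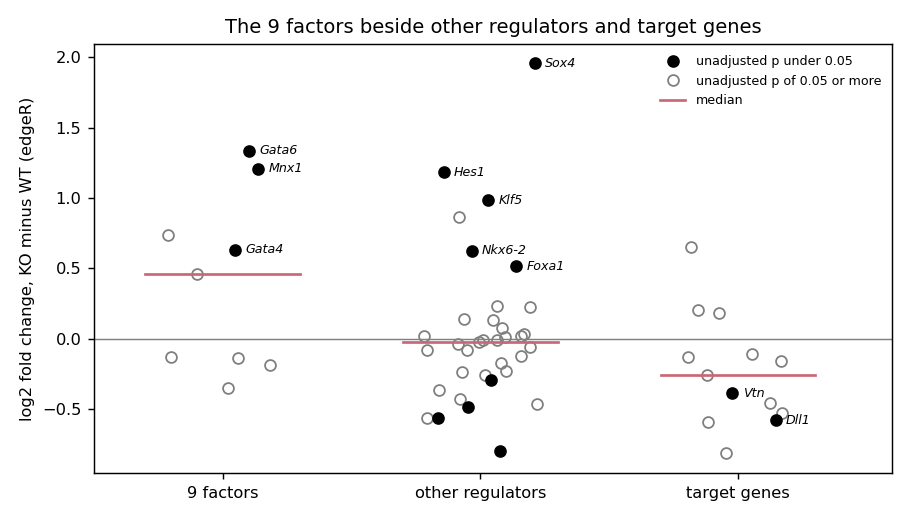
Log2 fold change (edgeR, KO minus WT) of the 9 factors, the 35 other regulators and the 13 tested target genes, with a line at each median. Filled circles mark an unadjusted p under 0.05, and most of those described in the text have names beside them. *Gata4*, *Gata6* and *Mnx1* are the filled circles among the 9 factors, and all 3 lie above 0.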

How the data were processed

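The authors made libraries with SMART-seq v4 and Nextera XT, removed low-quality sequence, aligned reads to GRCm39 with STAR and quantified them with GenomicAlignments. They deposited raw counts per gene, not normalized. Gene annotation, strand handling and tool versions are not given in the sources used here. Libraries were grouped by genotype and replicate as the labels give them, and a symbol was found for 94.0% of gene identifiers.

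The main fit used edgeR 4.0.16 in R 4.3.3 (filterByExpr, TMM, glmQLFit, glmQLFTest, default settings), genotype being its single term. Standard errors came from the log2 fold change and the F statistic. DESeq2 1.42.0 was run with default settings on genes with at least 1 count. Both were tested on simulated data. Ratios use log2(CPM + 0.5). Between libraries of 1 genotype, chi-square over its degrees of freedom was 28.0 to 45.6, so no library is a copy of another of its genotype. Libraries of different genotypes were not compared in this way. The members, lists and tests were chosen with earlier results of these data known. Named genes are the 9 factors, the 6 of each list with the smallest edgeR p and the 5 closest to the mean profile, and 3 of these are not reported here. *Olig2*, *Neurog2*, *Lhx3*, *Tubb3*, *Elavl4*, *Krt8*, *Krt18*, *Krt19*, *Sox2*, *Osr1*, *Cdx2*, *Hnf4a*, *Gcg*, *Col1a1*, *Col3a1* and *Foxa2* were named after their values were seen. So were *Col1a2*, *Vim*, *Onecut2* and *Onecut3*. Transcripts were those of GENCODE M21 (GRCm38), so gene coordinates are not given. Marker sums not given in the results were, in CPM, 1026 to 2346 in WT and 886 to 2596 in KO for liver, 7.68 to 10.4 and 1.71 to 29.3 for endothelium, and 1.73 to 3.77 and 0.925 to 2.46 for immune cells.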

Additional observations from a re-analysis of the deposited data

How the results depend on the processing

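Each factor was recomputed under 14 alternatives listed with the design. *Nkx6-1*, *Mnx1*, *Gata4* and *Gata6* were higher in KO, and *Onecut1* and *Nr5a2* lower, under all 14. DESeq2 called 699 genes, 2 factors, 4 other regulators and 1 target gene. With genes of low counts kept, edgeR called 264, 2, 3 and 0. With 1 library left out in turn it called 0 to 217 genes, 0 to 1 factors and 0 to 2 other regulators, and the highest counts came without WT replicate 2. For *Gata4* the log2 fold change was 0.65 by DESeq2 and 0.64 with low counts kept, and for *Gata6* 1.36 and 1.34. Leaving out 1 library gave 0.50 to 0.77 for *Gata4*, 1.16 to 1.65 for *Gata6*, 0.77 to 1.61 for *Mnx1*, 0.36 to 1.23 for *Nkx6-1*, -0.29 to 0.014 for *Pdx1*, -0.038 to 0.81 for *Ptf1a*, -0.22 to 0.016 for *Sox9* and -0.038 to 0.69 for the median of the 9. For the log2 ratio it gave -0.40 to 0.16 for *Ptf1a* to *Nkx6-1* and -0.12 to 0.073 for *Pdx1* to *Sox9*. Alternatives chosen after seeing the data were DESeq2 with GC offsets, which called 2 factors (*Gata4* 0.52, *Gata6* 1.12), and DESeq2 with libraries left out. Without 1 library it called 2 to 3 factors, with 0.51 to 0.77 for *Gata4*, 1.16 to 1.65 for *Gata6* and 0.77 to 1.60 for *Mnx1*, which it called without KO replicate 3. Without WT replicate 3 and KO replicate 1 together it called 0 factors. Where a call changed, the cause was not tested.

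Deviations of same-numbered libraries from their genotype's mean correlated with r of -0.43, 0.38 and 0.14 over 9853 genes. The largest r of any pair was 0.55, for WT replicate 3 and KO replicate 1, the libraries with the most hemoglobin. With 3 libraries per genotype, such values cannot show or exclude a shared litter or batch. The library codes of WT replicate 2 and KO replicate 1 share a prefix, whose meaning is not stated. By the first digit of the code, WT replicates 1 and 2 go with KO replicate 1, and WT replicate 3 with KO replicates 2 and 3. With a term for that digit, edgeR called 0 genes and 0 factors. The log2 fold changes were then 0.63 for *Gata4*, 1.45 for *Gata6* and 1.14 for *Mnx1*, whose unadjusted p was 0.0648 by edgeR. With the replicate number as a block, edgeR called 0 genes (1693 at an unadjusted p under 0.05) and 0 factors, with log2 fold changes of 0.65 for *Gata4* and 1.36 for *Gata6* (adjusted p = 0.193 and 0.209). The block combined with GC offsets was planned only for paired numbers and was not run. Depth limits *Nkx6-1* and *Ptf1a*, with 14 to 104 counts per library.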
